A study of Mus musculus with 32 samples.

Results

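The mitotic kinesins, centromere proteins, cyclins and mitotic kinases are the genes that carry a cell through chromosome condensation, spindle assembly and separation of the chromosomes. Here they were followed in 2 organs, liver and spleen, of cloned mice made by nuclear transfer. Members were chosen by gene symbol alone, as kinesins (Kif), centromere proteins (Cenp), Aurora kinases, Bub and Mad2-like checkpoint genes, Polo-like kinases, cyclins of the A, B and E types, Cdc25 and anaphase-promoting complex genes, condensin subunits (Ncap), Nek kinases, Cdk1 and survivin (Birc5). The rule found 61 genes with 86 probes, of 9026 genes with 12760 named probes in a table of 20794 rows.

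The study hybridised RNA of cloned mice on 2-colour arrays against pooled RNA of control mice. There were 4 groups: liver and spleen of Dll1 clones, against a pool of Dll1 heterozygotes, and liver and spleen of wildtype clones, against a wildtype pool. Each group held the same 4 mice of its cohort, all male, of strain 129/SvJ and 18 to 19 weeks old, and each mouse was measured on 2 arrays with the dyes swapped, which made 32 arrays. All 4 groups share the cloning by nuclear transfer, and the pools share sex, strain and age with the clones. Dll1 encodes a ligand of Notch receptors. The labels do not give the zygosity of the Dll1 clones, and each ratio sets cloned mice against the pool of their own cohort, so it does not test the Dll1 allele. The protocol describes a pool of 6 animals and the label lists 4 mouse identifiers for it, and the pool entered each ratio without a spread of its own.

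Many members act in mitosis. Cyclin A and cyclin B bind Cdk1 and drive entry into mitosis, the Cdc25 phosphatases switch Cdk1 on, and Cdc20 with the anaphase-promoting complex destroys the cyclins so that the cell can leave mitosis. Aurora and Polo-like kinases build the spindle, centromere proteins tie chromosomes to it, and the Bub and Mad genes hold the cell until every chromosome is attached. In adult mice liver cells divide rarely, whereas the spleen of a mouse is a site of blood formation and holds dividing red cell precursors and lymphocytes. Not every symbol in the set is a gene of division: many kinesins, among them Kif5a and Kif1b, carry cargo along microtubules in cells that do not divide.

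Transcripts of late cell cycle genes are under the control of short promoter elements, the cell cycle homology region (CHR) and the CCAAT box bound by NF-Y. Promoters of 55 members were found in the RefSeq table (GRCm38.p6), each from 250 bases before to 50 bases after a gene's start, and those of Aurkb, Ccna2, Cdc25c, Kif20a, Kif5a and Kif5b were not analysed here. Matches were searched on both strands, with overlaps between motifs not removed. A CHR (TTTGAA or TTCGAA) was present in 19 of these 55 members, or 34.5%, against 21.7% of 27025 genes and 19.2% of all promoters of this length. A CCAAT box (CCAAT) was present in 27 members, or 49.1%, against 41.1% of genes and 37.4% of promoters. CHR and CCAAT box occurred together in 16 members, or 29.1%, against 9.65% of genes. An E2F element (TTTNGCGC or TTTCCCGC), typical of genes of DNA replication, was present in 7 members, or 12.7%, against 2.74% of genes and 2.39% of promoters. A match is a run of letters and not a shown binding site.

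The 150 bases before the start are given for Cdk1 and Ccnb2, which encode the core mitotic kinase and its cyclin, and for Aurka, Cdc20 and Ncapg2, which lay under 0 in all 4 wildtype clone spleens. Plk4, Cenpb and Cenpp also lay under 0 in all 4, and their promoters held neither a CHR nor a CCAAT box. So did Cdc25b, whose promoter held both, and Ccna2, whose promoter was not analysed. In the sequences, capitals mark CHR and CCAAT box on either strand (TTCAAA and ATTGG are the reverse strand forms), and each run is written along the gene's strand. Cdk1 holds 2 CHR and 2 CCAAT boxes (chr10:69352913-69353062, minus strand), Cdc20 holds a CHR and 2 CCAAT boxes (chr4:118437344-118437493, minus strand) and Ncapg2 a CHR and no CCAAT box (chr12:116405286-116405435, plus strand). Ccnb2 has 3 CCAAT boxes (chr9:70421555-70421704, minus strand) and Aurka 2 (chr2:172370571-172370720, minus strand), and the CHR of both lay outside the stretch shown.
Cdk1: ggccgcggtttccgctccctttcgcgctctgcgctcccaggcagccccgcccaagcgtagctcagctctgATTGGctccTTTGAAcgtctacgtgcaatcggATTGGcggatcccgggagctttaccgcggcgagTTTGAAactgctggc
Ccnb2: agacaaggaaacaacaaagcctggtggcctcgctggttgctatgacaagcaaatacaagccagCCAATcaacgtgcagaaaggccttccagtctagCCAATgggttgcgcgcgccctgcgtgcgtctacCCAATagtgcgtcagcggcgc
Aurka: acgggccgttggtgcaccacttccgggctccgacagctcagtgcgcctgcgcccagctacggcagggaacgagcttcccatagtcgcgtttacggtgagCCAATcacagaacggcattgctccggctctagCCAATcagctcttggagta
Cdc20: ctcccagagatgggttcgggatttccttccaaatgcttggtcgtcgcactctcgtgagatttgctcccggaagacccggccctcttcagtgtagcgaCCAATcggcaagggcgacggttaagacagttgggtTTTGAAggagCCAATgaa
Ncapg2: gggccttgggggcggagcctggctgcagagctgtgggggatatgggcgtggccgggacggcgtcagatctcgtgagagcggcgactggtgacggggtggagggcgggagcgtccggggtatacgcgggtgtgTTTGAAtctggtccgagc

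Gene names rest on a match between table rows and platform probes that is displaced by 11 rows. With that displacement, 2258 pairs of probes for the same gene correlated at a mean of 0.056 across mice and organs, with dye-swapped arrays averaged. The mean was -0.017 to 0.031 at 100 other displacements and -0.0007 at none, so the match stands apart but the agreement between probes is weak. Among the 22 members with several probes, all probes had the same sign in 10 in Dll1 clone liver, 15 in wildtype clone liver, 10 in Dll1 clone spleen and 12 in wildtype clone spleen.

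Values are log2 ratios, averaged over the 2 arrays of a mouse and then over the probes of a gene. They are read as clone over pool, which is likely from the word order of the titles and not stated otherwise. Turning it would exchange every higher and lower value. Whether the arrays with the clone in Cy3 were already turned to this direction is not settled, least of all for wildtype liver. Mean ratios of the 2 dye orientations correlated across probes at -0.26 in Dll1 clone liver, -0.70 in wildtype clone liver, -0.30 in Dll1 clone spleen and -0.38 in wildtype clone spleen. The values were used as deposited, and a value with the Cy3 arrays turned, here called the turned value, is given beside the main results below. Further ones stand in the closing section. Among the members, both orientations had the same sign for 24 of 61 genes in Dll1 clone liver and 7 in wildtype clone liver, against 38% and 17% of all features. In the spleens it was 20 of 61 in Dll1 clones and 23 in wildtype clones, against 39.6% and 33% of all features. Wildtype clone liver had the fewest members with the same sign.

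**Figure D1:**
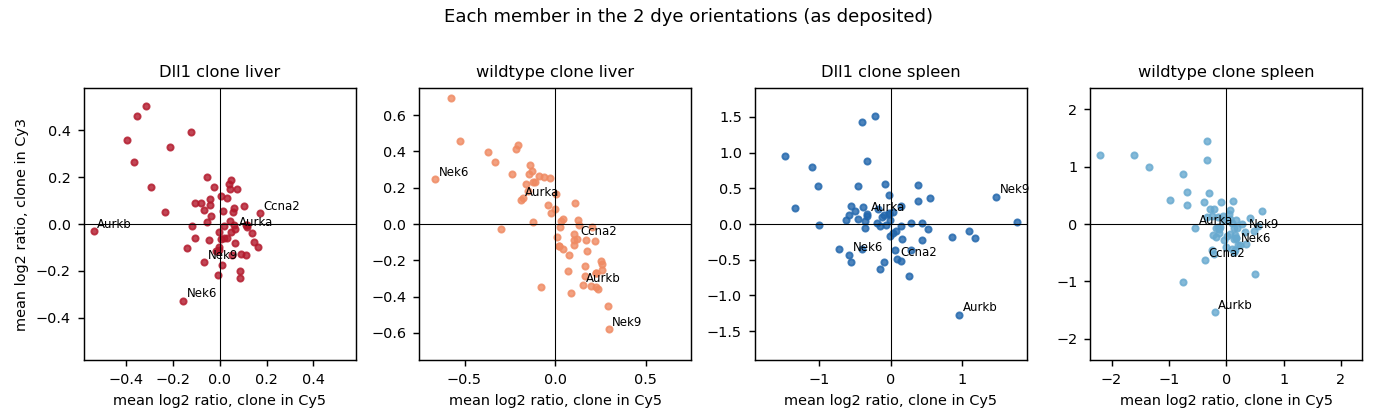
Mean log2 ratio of each member with the cloned mouse in Cy5 (x axis) against that with it in Cy3 (y axis), as deposited, one panel for each group. Points in the lower left or upper right corner of a panel have the same sign in both orientations, 24 of 61 in Dll1 clone liver, 7 in wildtype clone liver, 20 in Dll1 clone spleen and 23 in wildtype clone spleen.

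Members varied more between mice in spleen than in liver. Their median SD over mice was 0.126 in Dll1 clone liver, 0.0810 in wildtype clone liver, 0.424 in Dll1 clone spleen and 0.279 in wildtype clone spleen, close to that of all features (0.109, 0.0865, 0.398 and 0.257). The spread of an array, as the median absolute deviation, ran from 0.105 to 0.701, and 1 array of Dll1 clone spleen mouse 3 stood apart with that highest spread and 2859 missing values. In wildtype clone spleen the highest spread and most missing values were also on an array of mouse 3, at 0.405 and 1033. Dll1 spleens 1 and 2 each had an array with more missing values than any wildtype spleen, 1594 and 1574. Dll1 itself lay at -0.07 ± 0.29 in Dll1 clone liver, -0.40 ± 0.42 in wildtype clone liver, -0.05 ± 0.45 in Dll1 clone spleen and 0.25 ± 0.75 in wildtype clone spleen (SD, n = 4 mice each), and none passed by limma (adjusted p = 0.883, 0.334, 0.962 and 0.860). The files hold ratios and no levels, so the tissue could not be checked by the level of its markers.

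No member passed the threshold (limma, adjusted p under 0.05 over all features) in any of the 4 groups. In Dll1 clone spleen 0 of 57 members with values in at least 3 mice passed, against 0% of 15875 features, and 1 lay lower and 2 higher at an unadjusted p under 0.05, against 2.71% and 2.17% of features. Without mouse 3, whose array stood apart, 0 members passed, against 0 of 16519 features. In wildtype clone spleen 0 of 58 passed, against 0% of 16469 features, and 5 lay lower and 2 higher at that unadjusted p, against 2.96% and 3.19%. In Dll1 clone liver 0 of 61 passed, against 0% of 16915 features, with 2 lower and 0 higher, against 3.75% and 1.96%. In wildtype clone liver 0 of 61 passed, against 0.153% of 16948 features, with 5 lower and 3 higher, against 5.95% and 6.09%. With the Cy3 arrays turned, 35 of 61 members passed in wildtype clone liver (57.4%), 16 higher and 19 lower, against 56.8% of all features, and 0 passed in the other 3 groups (against 0.112% of features in Dll1 clone liver, 0% in Dll1 clone spleen and 1.54% in wildtype clone spleen).

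As a group the members lay near 0 in liver and, as deposited, a little under 0 in the spleen of both cohorts. The median over members was -0.087 in Dll1 clone spleen and -0.057 in wildtype clone spleen, against 0.007 and 0.013 for all features. In liver it was 0.005 in Dll1 clones and 0.015 in wildtype clones, against -0.004 and 0.008. The mean lay under 0 for 35 of 57 members in Dll1 clone spleen (all features 49%) and 38 of 58 in wildtype clone spleen (46.8%), and for 30 of 61 in Dll1 clone liver (52%) and 25 of 61 in wildtype clone liver (45.1%). The 4 wildtype spleens lay close together, with member medians of -0.053, -0.084, -0.052 and -0.066 in mice 1 to 4. The Dll1 spleens split: members had a median of -0.160 and -0.106 in mice 1 and 2, and 0.061 and 0.048 in mice 3 and 4. The turned medians were -0.075 in Dll1 clone spleen (34 of 57 under 0, against 51.8% of features) and 0.029 in wildtype clone spleen (28 of 58 under 0, against 42.8%), so that only the Dll1 median kept its sign. Fewer dividing cells and less RNA per cell cannot be told apart in whole organs.

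**Figure D2:**
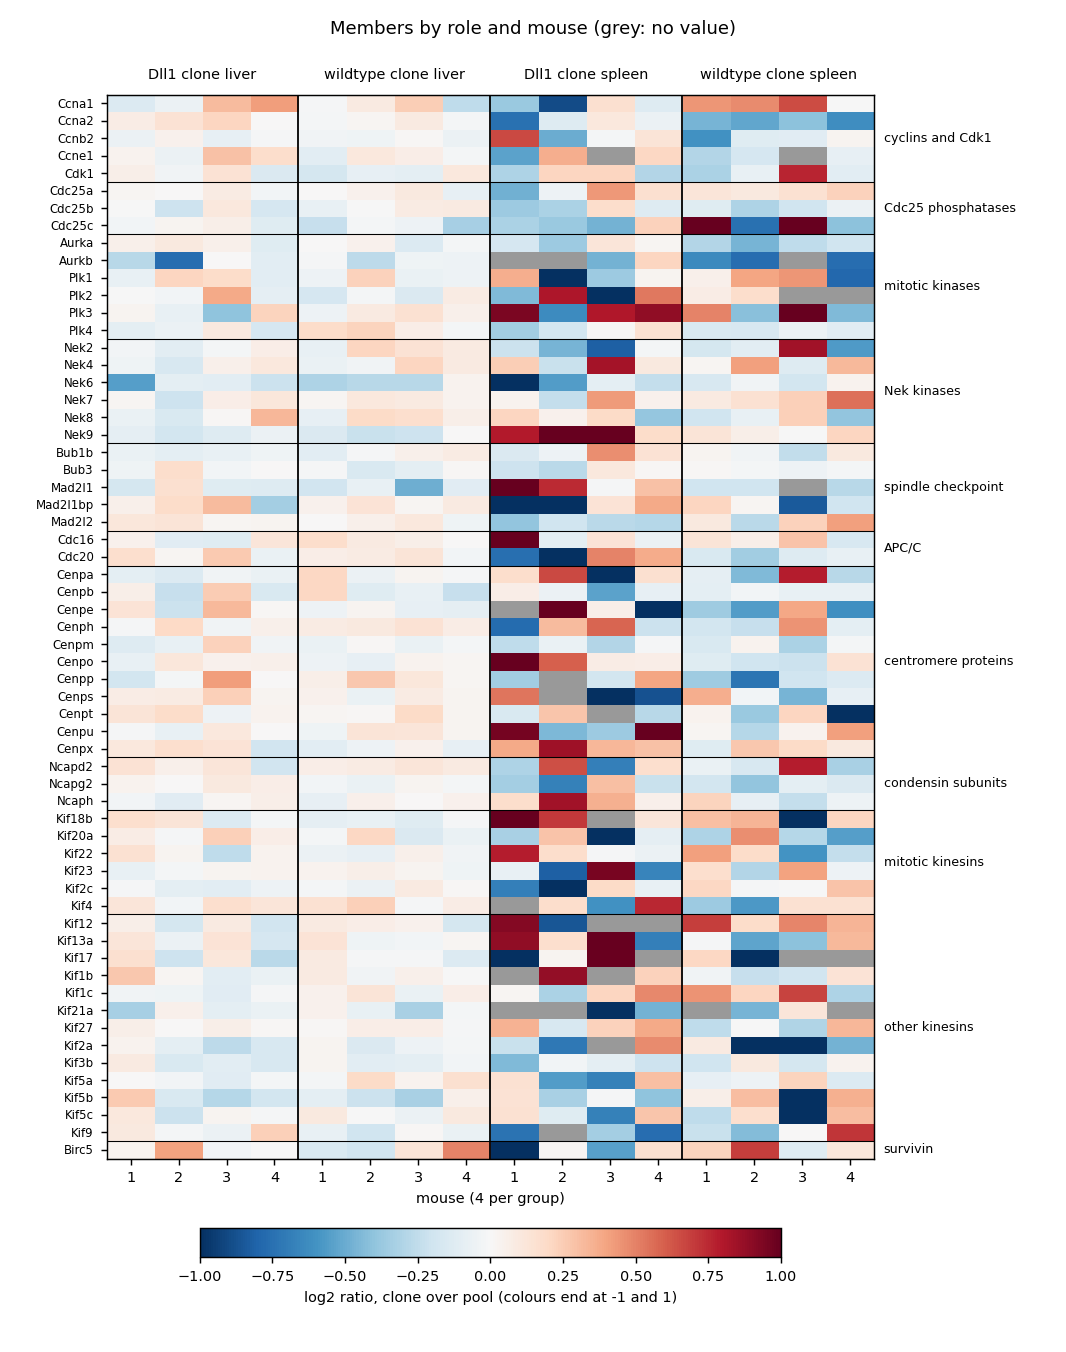
Log2 ratio, clone over pool, of the 61 members (rows, by role) in each of 4 mice of the 4 groups (columns), blue below and red above 0, grey where no value was left. The liver columns are pale, the spleen columns carry wider values of both signs, and Ccna2, Aurkb and Aurka are blue in each wildtype spleen that has a value.

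In the spleen of wildtype clones, Ccna2, Aurkb and Aurka had the smallest p among the members under 0. Ccna2, cyclin A2, which acts in DNA replication and at entry into mitosis, lay at -0.47, -0.52, -0.41 and -0.62 in wildtype spleens 1 to 4. All 4 mice and all 8 arrays were under 0. The mean was -0.50 (SE 0.09, limma adjusted p = 0.653), and its 2 probes lay at -0.61 and -0.39. With the Cy3 arrays turned the mean was 0.13. In Dll1 spleens Ccna2 lay at -0.74, -0.13, 0.10 and -0.06, so that mouse 1 alone was as low as the wildtype spleens. Without mouse 1 the Dll1 mean of -0.21 ± 0.37 (SD, n = 4) became -0.03, and the turned mean over all 4 was 0.29. In liver Ccna2 ranged over 0.004 to 0.218 in Dll1 clones and -0.018 to 0.088 in wildtype clones.

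The other cyclins and Cdk1 lay on both sides of 0. Cdk1, the kinase that starts mitosis, lay at -0.31, 0.21, 0.22 and -0.29 in Dll1 spleens, and at -0.32, -0.07, 0.76 and -0.11 in wildtype spleens. The groups overlap, and 1 wildtype spleen, mouse 3, stood far above the others. Ccnb2, cyclin B2, lay at 0.66, -0.49, -0.02 and 0.13 in Dll1 spleens, and at -0.61, -0.12, -0.11 and 0.03 in wildtype spleens. Its wildtype mean of -0.20 ± 0.28 (SD, n = 4) rested mostly on mouse 1, and its turned value was 0.02. Ccne1, cyclin E1 of the start of DNA replication, was under 0 in the 3 wildtype spleens with a value (-0.29, -0.17 and -0.08, turned mean 0.045). Ccna1, a cyclin known from the germ line of mice, went the other way in wildtype spleen at 0.44, 0.48, 0.65 and -0.002, with a mean of 0.39 (SE 0.13, limma adjusted p = 0.777), or -0.72 with the Cy3 arrays turned. Of the 5 genes of this role, 0 passed in any group.

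Both Aurora kinases lay under 0 in the wildtype spleens. Aurkb, the kinase of the chromosomal passenger complex that corrects wrong attachments, lay at -0.64, -0.76 and -0.76 in wildtype spleens 1, 2 and 4, and mouse 3 had no value because its array with the clone in Cy5 had none. The mean was -0.72 (SE 0.11, limma adjusted p = 0.653), against 0.52 with the Cy3 arrays turned, and it rested on a single probe. In these 3 mice that probe averaged -0.20 with the clone in Cy5 and -1.24 with it in Cy3, and in mouse 2 these arrays lay at 2.21 and -3.74, in mouse 4 at -2.28 and 0.75. In Dll1 spleen only mice 3 and 4 had a value (-0.47 and 0.21), so no test was made. In Dll1 livers Aurkb lay at -0.28, -0.76, 0.004 and -0.11 (mean -0.28, SE 0.12, limma adjusted p = 0.784), and in wildtype livers mouse 2 stood apart at -0.26, the others lying between -0.05 and -0.02 (turned group value 0.25, limma adjusted p = 0.0347). Birc5, survivin, a partner of Aurkb in the same complex, gave no clear direction: wildtype spleens were at 0.22, 0.69, -0.12 and 0.11 and Dll1 spleens at -1.04, 0.02, -0.54 and 0.16. Its 2 probes differed in sign in both spleen groups. The first lay under 0 in all 4 wildtype spleens (-0.37, -0.188, -0.125 and -0.003). The second had a value in 1 Dll1 and 3 wildtype mice, and lay at 0.815, 1.564 and 0.226 in wildtype spleens 1, 2 and 4.

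Aurka, the kinase of spindle poles, lay at -0.17, -0.36, 0.12 and 0.02 in Dll1 spleens, and at -0.29, -0.47, -0.25 and -0.20 in wildtype spleens. All 4 wildtype spleens and 2 of the Dll1 spleens were under 0. The wildtype mean was -0.30 (SE 0.10, limma adjusted p = 0.777), with both probes under 0 (-0.21 and -0.40) and a value of -0.24 with the Cy3 arrays turned. Plk1, which acts from mitotic entry to cytokinesis, varied widely at 0.36, -2.16, -0.36 and 0.03 in Dll1 spleens, and at 0.05, 0.40, 0.44 and -0.79 in wildtype spleens. Plk4, the kinase of centriole duplication, stayed under 0 in wildtype spleens (-0.15, -0.16, -0.06 and -0.11), and lay at -0.35, -0.18, 0.01 and 0.15 in Dll1 spleens. Of the 5 kinases tested in each spleen group, 4 had a mean under 0 in Dll1 clones and 3 in wildtype clones. Of all features, 49% and 46.8% did.

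**Figure D3:**
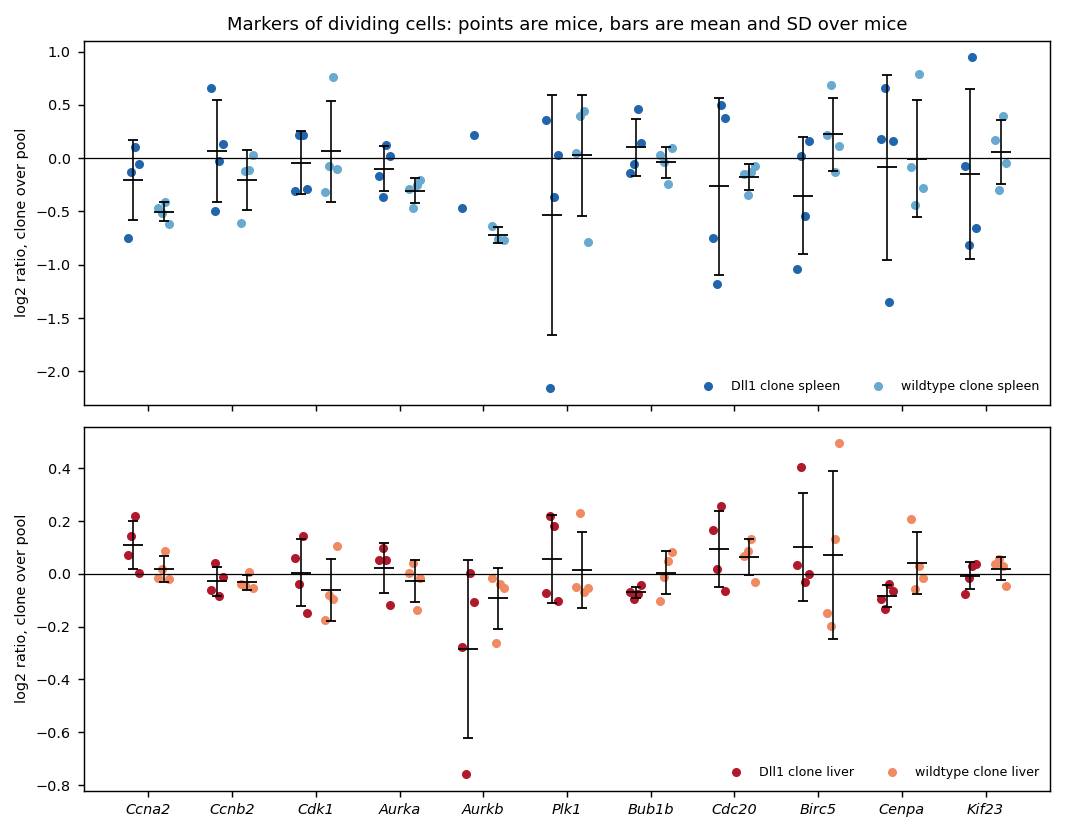
Log2 ratio, clone over pool, of 11 members used as markers of dividing cells, in spleen (upper panel) and liver (lower panel, a narrower scale), Dll1 clones left of wildtype clones for each gene. Points are mice and bars the mean and SD where at least 3 mice had a value. Ccna2, Aurka, Aurkb and Cdc20 lie under 0 in each wildtype spleen with a value, and the Dll1 spleens spread to both sides of 0 for every gene shown.

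Of 16 genes taken as markers of dividing cells, 11 had a named probe, and the others were not analysed here (Mki67, Ccnb1, Bub1, Ttk and Kif11). Their median was -0.155, -0.244, 0.105 and 0.130 in Dll1 spleens 1 to 4, and -0.152, -0.294, -0.119 and -0.106 in wildtype spleens 1 to 4. Dll1 mice 1 and 2 lay under 0 and mice 3 and 4 above it, and since these genes are members the panel is no separate evidence of that split.

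Genes of mitotic exit and of Cdk1 activation were mixed. Cdc20, the activator of the anaphase-promoting complex, lay at -0.75, -1.18, 0.50 and 0.37 in Dll1 spleens and at -0.15, -0.35, -0.13 and -0.07 in wildtype spleens. The Dll1 values split by mouse and the wildtype values were all under 0 (mean -0.18, SE 0.10, limma adjusted p = 0.777). In wildtype spleens, however, Cdc20 averaged -1.349 with the clone in Cy5 and 0.998 with it in Cy3. Of the 8 arrays, 4 were under 0 and 4 above. The small wildtype values of Cdc20 are thus what remained of larger values of opposite sign. Cdc16, a subunit of the complex, lay at 1.12, -0.09, 0.14 and -0.06 in Dll1 spleens and at 0.13, 0.06, 0.29 and -0.16 in wildtype spleens. Of the phosphatases, Cdc25b was under 0 in all 4 wildtype spleens (-0.12, -0.31, -0.20 and -0.06) and Cdc25a above 0 in all 4 (0.12, 0.09, 0.16 and 0.23), with turned means of -0.51 and -0.23.

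Among 5 checkpoint genes, Mad2l1, which encodes the Mad2 protein that blocks Cdc20, had the largest difference between cohorts. It lay at 1.57, 0.75, -0.01 and 0.29 in Dll1 spleens and at -0.20, -0.20 and -0.28 in wildtype spleens 1, 2 and 4, without overlap. The difference, Dll1 minus wildtype, was 0.88 (SE 0.36, limma adjusted p = 0.871), and its turned value was -0.82. Its partner Mad2l1bp lay at -1.44, -1.31, 0.13 and 0.38 in Dll1 spleens, and between -0.84 and 0.21 in wildtype spleens. Mad2l2, a Mad2-like protein of DNA repair, was under 0 in all 4 Dll1 spleens (-0.39, -0.20, -0.27 and -0.28) and lay between -0.27 and 0.41 in wildtype spleens. Bub1b, the BubR1 kinase, ranged over -0.14 to 0.46 in Dll1 spleens and -0.25 to 0.10 in wildtype spleens, and in the 4 Dll1 livers it lay between -0.09 and -0.04 (turned 0.16). In wildtype livers Mad2l1 was under 0 in all 4 mice, at -0.19, -0.07, -0.48 and -0.11 (mean -0.21, SE 0.07, limma adjusted p = 0.320), or 0.14 with the Cy3 arrays turned.

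Of the 11 centromere genes, 7 means lay under 0 in Dll1 clone spleen and 9 in wildtype clone spleen, against 49% and 46.8% of features, and 0 passed. Their medians by mouse were of both signs, at 0.122, 0.318, -0.236 and -0.010 in Dll1 spleens and -0.118, -0.230, 0.036 and -0.082 in wildtype spleens. Cenpa, the histone H3 variant that marks the centromere, lay at 0.18, 0.66, -1.35 and 0.16 in Dll1 spleens and at -0.09, -0.44, 0.79 and -0.28 in wildtype spleens. In either cohort mouse 3, which had the array with the most missing values of its spleen group, lay opposite to the rest. Cenpp, a subunit of the inner kinetochore, was under 0 in all 4 wildtype spleens (-0.35, -0.73, -0.20 and -0.13, mean -0.36, SE 0.13, limma adjusted p = 0.777), with a turned value of 0.10. Cenpx, which pairs with Cenps in a histone-fold complex, went the other way in Dll1 spleens, at 0.38, 0.85, 0.33 and 0.29. All 4 lay above the wildtype spleens, which ran from -0.12 to 0.27. The Dll1 mean was 0.46 (SE 0.17, limma adjusted p = 0.828), from probes at 0.80 and 0.12, and was -0.08 with the Cy3 arrays turned. In wildtype spleens the same probes lay at -0.21 and 0.43, so the second was lower in Dll1 clones and the separation rested on the first. Cenps itself lay at 0.54, -1.10 and -0.87 in the 3 Dll1 spleens with a value.

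In wildtype livers 3 centromere genes were above 0 in all 4 mice: Cenph (0.07 to 0.15, mean 0.10, SE 0.04, limma adjusted p = 0.364, turned -0.16), Cenpp (0.02 to 0.27, mean 0.12, SE 0.05, limma adjusted p = 0.413, turned -0.14) and Cenpt (0.01 to 0.19). In Dll1 livers this held for Cenps (0.03 to 0.24, mean 0.11, SE 0.05, limma adjusted p = 0.784, turned -0.065), and Cenpa was under 0 in all 4 (-0.13 to -0.04). In all, members under 0 in 4 of 4 mice numbered 6 of 61 in Dll1 clone liver and 4 of 61 in wildtype clone liver, against 9.92% and 8.99% of features. Those above 0 in 4 of 4 numbered 5 and 7, against 5.83% and 11.7%. In the spleens the counts under 0 were 5 of 47 with 4 values in Dll1 clones and 8 of 55 in wildtype clones, against 7.61% and 7.03%, and those above 0 were 4 and 3, against 8.81% and 9.25%. The 8 in wildtype clone spleen were Ccna2, Aurka, Plk4, Cdc20, Cdc25b, Cenpb, Cenpp and Ncapg2. Of these, Cdc20, Cdc25b and Cenpb had mean ratios under 0 with the clone in Cy5 and above 0 with it in Cy3.

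Condensin compacts chromosomes before they are pulled apart. Ncapg2, of condensin II, lay at -0.34, -0.68, 0.30 and -0.22 in Dll1 spleens and at -0.18, -0.40, -0.09 and -0.14 in wildtype spleens. Of the condensin I subunits, Ncaph was above 0 in all 4 Dll1 spleens (0.05 to 0.84) and lay between -0.24 and 0.22 in wildtype spleens. Ncapd2 was above 0 in all 4 wildtype livers (0.07 to 0.12, mean 0.09, SE 0.04, limma adjusted p = 0.403), but -0.18 with the Cy3 arrays turned. In spleens Ncapd2 lay at -0.305, 0.647, -0.685 and 0.168 in Dll1 clones and at -0.069, -0.16, 0.785 and -0.326 in wildtype clones. The means of these condensin subunits thus had no common sign in either spleen group. Their median by mouse was under 0 in all 4 wildtype spleens (-0.16 to -0.069).

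The mitotic kinesins showed no common direction. Kif23, needed for cytokinesis, lay at -0.08, -0.82, 0.95 and -0.66 in Dll1 spleens and at 0.17, -0.29, 0.40 and -0.05 in wildtype spleens. Kif2c, which takes wrongly attached microtubules off the kinetochore, lay at -0.68, -0.99, 0.19 and -0.07 in Dll1 spleens and at 0.21, -0.01, -0.01 and 0.28 in wildtype spleens. Kif18b, which acts on the ends of spindle microtubules, lay at 1.22, 0.71 and 0.12 in the 3 Dll1 spleens with a value (mean 0.68, SE 0.27, limma adjusted p = 0.828), whereas wildtype spleen 3 stood apart at -1.61 and the other wildtype spleens lay between 0.22 and 0.34. Kif4, a kinesin of chromosome arms, lay at 0.10 in Dll1 liver (SE 0.05, limma adjusted p = 0.784, turned -0.052). Of 6 mitotic kinesins, 3 means in Dll1 clone spleen and 4 in wildtype clone spleen were under 0, against 49% and 46.8% of features.

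The kinesins of transport, cilia and other roles, 13 genes, had a median of -0.151 in Dll1 clone spleen and -0.057 in wildtype clone spleen, over 10 and 11 tested genes. Kif12 was above 0 in all 4 wildtype spleens (0.69, 0.18, 0.49 and 0.34, mean 0.42, SE 0.12, limma adjusted p = 0.762). Kif2a, a kinesin that shortens microtubules, had the lowest mean of all members there, -0.88, but its mice ran from -1.81 to 0.09 (SE 0.33, limma adjusted p = 0.777, turned 0.13). In Dll1 spleen Kif9 lay at -0.74, -0.34 and -0.76 (mean -0.61, SE 0.20, limma adjusted p = 0.828, turned 0.052), and at 1.56 when the values over 9 in size, treated here as missing, were kept.

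The Nek kinases held the largest mean of any member. Nek9 is the kinase that switches on Nek6 and Nek7 in mitosis. It lay at 0.79, 1.54, 1.20 and 0.19 in Dll1 spleens and at 0.13, 0.06, -0.001 and 0.21 in wildtype spleens. All 4 Dll1 spleens were above 0, and the lowest of them overlapped the wildtype spleens. The Dll1 mean was 0.93 (SE 0.25, limma adjusted p = 0.828), or 0.55 with the Cy3 arrays turned, and the difference, Dll1 minus wildtype, was 0.83 (SE 0.28, limma adjusted p = 0.871). In the livers Nek9 lay at -0.09, -0.19, -0.13 and -0.06 in Dll1 clones and -0.14, -0.22, -0.20 and 0.003 in wildtype clones. Its turned liver values had the opposite sign, 0.048 in Dll1 clones and 0.44 in wildtype clones (limma adjusted p = 0.000443), so its direction in liver depends on the dye orientation.

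Nek6, its target, was under 0 in Dll1 spleens (-1.13, -0.56, -0.10 and -0.24) and lay between -0.18 and 0.04 in wildtype spleens, where its turned value was 0.29. It was also under 0 in all 4 Dll1 livers (-0.55, -0.10, -0.10 and -0.22, mean -0.24, SE 0.08, limma adjusted p = 0.784, turned 0.086) and in 3 of 4 wildtype livers (-0.31, -0.28, -0.28 and 0.03, mean -0.21, SE 0.06, limma adjusted p = 0.290, turned -0.46 with limma adjusted p = 0.000165). In wildtype liver 4 of the 8 arrays were under 0 and 4 above. Nek7, the close relative of Nek6, was above 0 in all 4 wildtype spleens (0.09, 0.15, 0.24 and 0.55, mean 0.26, SE 0.11, limma adjusted p = 0.777), and Nek2, of centrosome separation, was under 0 in all 4 Dll1 spleens (-0.21, -0.46, -0.82 and -0.02, mean -0.38, SE 0.19, limma adjusted p = 0.828). In Dll1 spleens Nek2 averaged -0.405 with the clone in Cy5 and -0.353 with it in Cy3, and Nek6 -0.583 and -0.432. With the Cy3 arrays turned, the values of each gene largely offset each other.

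The difference of the cohorts, Dll1 minus wildtype, addressed whether clones stood apart from their pools alike in both genotypes. In spleen 0 of 55 members passed, against 0% of 15632 features, and 1 lay lower and 2 higher at an unadjusted p under 0.05, against 2.53% and 2.14%. Besides Nek9 and Mad2l1 this was Ccna1, at -0.31 in Dll1 clones and 0.39 in wildtype clones (difference -0.70, SE 0.26, limma adjusted p = 0.871, turned 0.94). Of 45 members with 4 values in both, 1, Cenpx, did not overlap and was higher (turned difference -0.020), against 1.52% of features, and 0 were lower, against 1.64%. The second probe of Cenpx went the other way, at 0.12 in Dll1 clones and 0.43 in wildtype clones. The difference was under 0 for 27 of 55 members in spleen, against 50.9% of features, and for 31 of 61 in liver, against 55%. In liver 0 of 61 passed, against 0% of 16900 features, and 0 lay lower and 0 higher at that unadjusted p, against 3.11% and 1.76%. No member's liver groups were without overlap (0 lower and 0 higher of 61, against 2.41% and 0.928% of features). The smallest p belonged to Plk4 (-0.06 in Dll1 clones and 0.11 in wildtype clones, difference -0.17, SE 0.08, limma adjusted p = 0.934, turned 0.058) and Kif5a (-0.04 and 0.09, difference -0.13, SE 0.06, limma adjusted p = 0.934, turned 0.32 with limma adjusted p = 0.0026). With the Cy3 arrays turned, 21 of 61 members passed in liver (34.4%), against 41.6% of features, and 0 passed in spleen, against 0%.

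The difference of the organs, spleen minus liver, asked whether cloned mice stood apart from their pools more in 1 organ. In wildtype clones 0 of 58 members passed, against 0.0973% of 16450 features, and 6 lay lower and 3 higher at an unadjusted p under 0.05, against 4.54% and 5.56%. Ccna2 came closest, at -0.50 in spleen and 0.02 in liver (difference -0.52, SE 0.08, limma adjusted p = 0.0701), followed by Aurkb at -0.72 in spleen and -0.09 in liver (difference -0.63, SE 0.10, limma adjusted p = 0.0903). With the mouse as a block the adjusted p was 0.492 for Ccna2 and 0.500 for Aurkb, and with the Cy3 arrays turned the differences were 0.03 and 0.27. Members with 4 values in both organs that did not overlap were Ccna2, Aurka, Plk4, Cdc20, Cenpp and Ncapg2, all lower in spleen (6 of 55, against 3.81% of features, the turned difference of Cenpp being 0.245), and Kif12, higher in spleen (1 of 55, against 4.82%). In Dll1 clones 0 of 57 passed, against 0% of 15859 features, and 2 lay lower and 4 higher at the unadjusted p, against 4.22% and 4.52%. Nek9 led these, at 0.93 in spleen and -0.12 in liver (difference 1.04, SE 0.27, limma adjusted p = 0.514), followed by Kif9 at -0.61 in spleen and 0.07 in liver (difference -0.68, SE 0.17, limma adjusted p = 0.514, turned 0.14). Of 47 members with 4 values in both organs, Mad2l2 was lower in spleen without overlap (1, against 3.37% of features), and Nek9 and Cenpx were higher (2, against 4.68%, the turned difference of Cenpx being -0.143). The difference was under 0 for 39 of 57 members in Dll1 clones, against 48.1% of features, and for 39 of 58 in wildtype clones, against 47.7%. With the Cy3 arrays turned, 12 of 58 members passed in wildtype clones (20.7%), against 22.7% of features, and 0 in Dll1 clones, against 0%.

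Genes of DNA replication, which act before mitosis and are no members, had a lower median than the members in the wildtype spleens as deposited. Of 23 tested genes on this list, 17 lay under 0 in Dll1 clone spleen and 4 lay lower at an unadjusted p under 0.05, against 49% and 2.71% of features, with a median of -0.155. In wildtype clone spleen 22 lay under 0 and 10 lay lower at that p, against 46.8% and 2.96% of features, and the median was -0.348. Turned, the list had 12 of 23 under 0 and a median of -0.013 in Dll1 clone spleen, and 9 of 23 and 0.130 in wildtype clone spleen, with 3 and 1 lower at that p. Of all features turned, 51.8% and 42.8% lay under 0, and 9.17% and 12.8% lay lower at that p. In either reading 0 passed in the spleens. Rrm2, a ribonucleotide reductase subunit, lay at -0.59, -0.61, -0.22 and 0.07 in Dll1 spleens and at -0.60, -0.90, -0.54 and -0.77 in wildtype spleens. Top2a, which untangles DNA in replication and mitosis, lay at -0.82, -0.76, -0.60 and -0.26 in Dll1 spleens and at -0.27, -0.59, -0.56 and -0.69 in wildtype spleens. In liver the same list had a median of 0.025 in Dll1 clones and 0.026 in wildtype clones.

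As deposited, 5 lists of other genes of the mitotic machinery had medians nearer to 0 than the replication list in wildtype spleens. In Dll1 spleens the spindle list lay farther from 0 than the replication list. The turned medians of these 5 lists had the opposite sign in both spleen groups. Of all features, 49% in Dll1 clone spleen and 46.8% in wildtype clone spleen lay under 0. At an unadjusted p under 0.05, 2.71% and 2.96% of features lay lower and 2.17% and 3.19% higher. Of 12 further kinetochore and checkpoint genes, 9 lay under 0 in each spleen group (median -0.120 in Dll1 clones and -0.068 in wildtype clones), and 1 lay lower at an unadjusted p under 0.05 in each. That was Cdca8, borealin, a further partner of Aurkb and survivin, at -2.10, -1.24, -0.20 and -0.97 in Dll1 spleens and -0.55, -0.91, -0.04 and -0.69 in wildtype spleens. Of 14 spindle and cytokinesis genes, 10 and 8 lay under 0 (median -0.187 in Dll1 clones and -0.093 in wildtype clones), with 0 and 4 lower at that p. Of the regulators of cell cycle transcription, 19 and 21 of 30 lay under 0 (median -0.099 in Dll1 clones and -0.114 in wildtype clones), with 1 and 4 lower, among them in wildtype spleen E2f2 at -0.60, -0.38, -0.38 and -0.36. For the anaphase-promoting complex the medians were 0.132 in Dll1 clones (11 genes, 1 higher) and -0.170 in wildtype clones (9 genes, 2 lower), and for cohesin with the condensin core -0.054 and -0.096 (9 genes each, 0 and 1 lower).

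Markers of red cell precursors lay low in the same spleens as deposited, and not when turned. Of 13 tested erythroid markers, 12 in Dll1 clone spleen and 11 in wildtype clone spleen lay under 0, against 49% and 46.8% of features. Their medians were -0.563 and -0.374. At an unadjusted p under 0.05, 5 and 8 lay lower (against 2.71% and 2.96% of features), and 0 passed. Turned, 5 and 4 of 13 erythroid markers lay under 0, against 51.8% and 42.8% of features, with medians of 0.044 and 0.171. The median of the erythroid markers as deposited was -1.097, -0.799, -0.057 and -0.234 in Dll1 spleens 1 to 4, and -0.439, -0.705, -0.504 and -0.281 in wildtype spleens 1 to 4. Dll1 mice 1 and 2, lowest for the members, were also lowest for these markers, and wildtype mouse 2 was lowest for both. That order of the Dll1 mice was not particular to red cell markers, since some neutrophil genes given below shared it. Car2, a carbonic anhydrase of red cells, lay at -1.75, -0.93, -0.12 and -0.23 in Dll1 spleens and at -0.79, -1.45, -0.88 and -0.98 in wildtype spleens. The part of red cell precursors in the members' values was not tested.

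**Figure D4:**
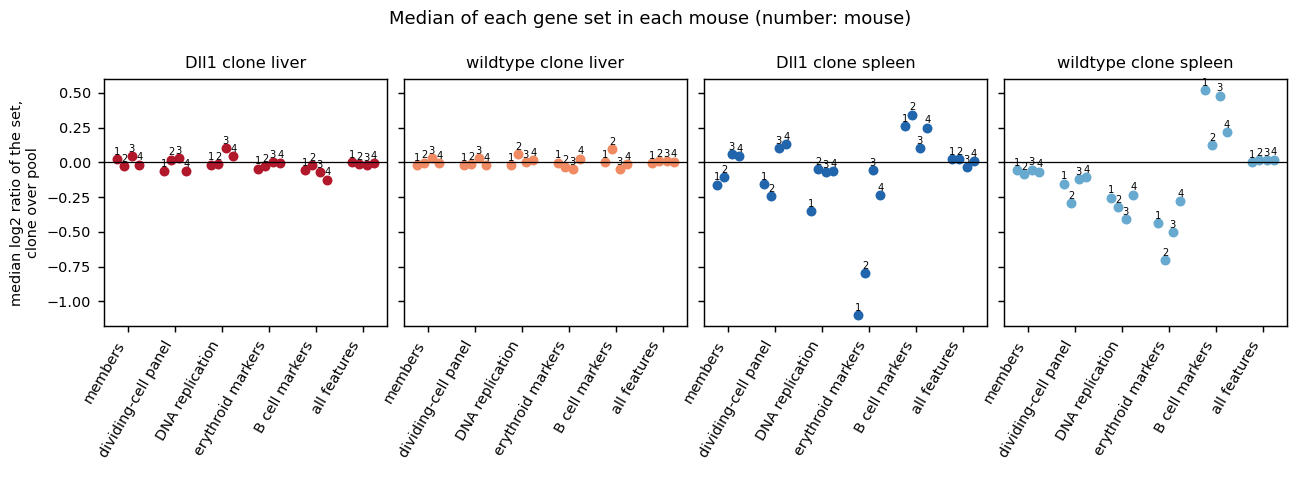
Median log2 ratio, clone over pool, of each gene set in each mouse (numbers are mice), one panel for each group. In Dll1 spleens mice 1 and 2 lie lowest for members (-0.160 and -0.106) and for erythroid markers (-1.097 and -0.799), and in wildtype spleens the replication genes lie between -0.408 and -0.232 while the members lie between -0.084 and -0.052.

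Markers of lymphocytes had medians above 0 in both spleen groups as deposited, and single genes lay on both sides of 0. As deposited, 2 of 5 tested B cell markers lay under 0 in Dll1 clone spleen and 0 of 5 in wildtype clone spleen, against 49% and 46.8% of features, with medians of 0.124 in Dll1 clones and 0.176 in wildtype clones. Turned, these medians were -0.233 and -0.124. The B cell antigen gene Ms4a1 lay at 0.39, 0.37, 0.55 and 0.46 in Dll1 spleens and at 0.76, 0.59, 0.81 and 0.66 in wildtype spleens, whereas Blk and Cd22 had means of -0.04 and -0.11 in Dll1 spleens. Of the T cell markers, 5 of 8 in Dll1 clones and 5 of 7 in wildtype clones were above 0 (medians 0.190 and 0.133, turned 0.150 and 0.160). At an unadjusted p under 0.05, 1 of 5 B cell markers in Dll1 clones and 2 of 5 in wildtype clones lay higher. For T cell markers it was 0 of 8 and 2 of 7, against 2.17% and 3.19% of features. In both lists 0 passed. For 10 neutrophil and macrophage markers the medians were -0.425 in Dll1 clone spleen and 0.054 in wildtype clone spleen (turned 0.034 and 0.042). Among them Camp (-1.313, -0.759, 0.049 and -0.134 in Dll1 spleens 1 to 4) and Elane (-0.816, -1.409, 0.188 and -0.182) were lowest in Dll1 mice 1 and 2. Mpo (-0.047, -0.552, -0.192 and -0.455) and Lyz2 (0.448, 0.304, 0.082 and 0.409) did not have that order. Germinal centre and plasma cell markers had medians of -0.067 and -0.031, platelet markers of -0.133 and -0.057, and markers of exocrine pancreas, a neighbour of the spleen, of 0.114 and 0.099. Of 12 hepatocyte markers, 11 in Dll1 clone liver and 12 in wildtype clone liver lay under 0, against 52% and 45.1% of features. Their medians were -0.099 and -0.194 (turned -0.008 and 0.064), and those of the members 0.005 and 0.015. At an unadjusted p under 0.05, 5 and 10 hepatocyte markers lay lower, against 3.75% and 5.95% of features. After adjustment 0 passed in Dll1 clone liver and 1 in wildtype clone liver, against 0% and 0.153%. Turned, 0 and 7 passed, against 0.112% and 56.8%. The part of these cell types in the members' values was not tested either.

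The promoter elements shown above were set beside the spleen values as a description. In Dll1 clone spleen the 19 members with a CHR had a median of -0.087 with 12 under 0, and the 33 tested members without one had a median of -0.042 with 18 under 0. In wildtype clone spleen the medians were -0.061 with a CHR (14 of 19 under 0) and -0.039 without (19 of 33 under 0). The ranges overlap widely, from -0.304 to 0.118 with a CHR and from -0.878 to 0.424 without in wildtype clone spleen, and Cdk1, with 2 CHR, lay at 0.06 there beside Aurka at -0.30.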

How the data were processed

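RNA of 8 cloned mice was measured in 2 organs on 32 arrays. Per the labels' protocols, RNA was labelled indirectly with Cy3 or Cy5 and each mouse was hybridised with the dyes swapped. The deposited values are log2 ratios, 1 table column an array, and no source used here gives their normalization or direction. Table row n was named by the platform symbol of probe n minus 11. Values over 9 in size (1183, of which 5 were members') were set to missing.

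A mouse's value is the mean of its 2 arrays, missing where either was missing, and probes of a gene were averaged. Features with values in at least 3 of 4 mice were tested with limma 3.58.1 in R 4.3.3 (lmFit, eBayes), against 0 for each group and as differences of group means for cohorts and organs, with Benjamini-Hochberg adjustment over all features and a threshold of 0.05. The script was tested on simulated data. The number of mice, 4 in each group, limits the precision, since the 2 arrays of a mouse were averaged. The depth of an array is its number of measured spots.

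The members, gene lists and tests were chosen with earlier results of these data known. Named were, for each group, the 3 members above 0 and the 3 under 0 with the smallest p, the markers of dividing cells, and for each difference the 2 members with the smallest p. Genes named as under or above 0 in all 4 mice, and others shown to describe a role, were chosen after their values were seen. For each list outside the members the rule named the 2 genes with the smallest p in each spleen group, and of these only examples are given.

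Livers and spleens of a cohort come from the same 4 mice, by the mouse identifiers in the labels. Deviations from the group mean correlated between the liver and spleen of a mouse at -0.004 to 0.018 in Dll1 clones and 0.012 to 0.107 in wildtype clones. Alternatives were the Cy3 arrays turned, either array of a mouse, the large values kept, arrays centred and scaled, values in all 4 mice, the median probe, robust eBayes, both genotypes in 1 fit, single arrays with a dye term, the mouse as a block, and each mouse left out. Turning the Cy3 arrays for the gene lists outside the members was added after the data were seen.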

Additional observations from a re-analysis of the deposited data

Results flagged for a closer look

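Among 103 groups of 4 mice, for 28 named members, 9 held a mouse far from the other 3, and chance alone gives this in about 1 in 20 groups. In Dll1 livers Birc5 lay at 0.406 in mouse 2 (the others between -0.029 and 0.032), Mad2l1 at 0.162 in mouse 2 (the others between -0.174 and -0.122) and Cenpx at -0.192 in mouse 4 (the others between 0.106 and 0.168). In wildtype livers mouse 2 stood apart for Aurkb at -0.263 (the others between -0.054 and -0.015) and for Plk1 at 0.230 (the others between -0.070 and -0.048). Mouse 4 of the wildtype livers stood apart for Kif12 at -0.175 (the others between 0.046 and 0.086) and for Nek6 at 0.033 (the others between -0.311 and -0.275). In the spleens Cenpx lay at 0.845 in Dll1 mouse 2 (the others between 0.290 and 0.375), and Kif18b at -1.607 in wildtype mouse 3 (the others between 0.218 and 0.336).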

How the results depend on the processing

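Of 911 values recomputed for 70 named results, 839 kept their direction and their side of the threshold, 3 kept their direction and passed it and 69 turned sign, 37 of these with the Cy3 arrays turned. The cause was not tested. With the Cy3 arrays turned, Nek6, Aurka and Plk1 kept their sign and passed in wildtype clone liver (limma adjusted p = 0.000165, 0.0351 and 0.0307). Nek9, Bub1b, Cdk1, Cdc20, Birc5, Ncapd2, Aurkb and Cenpp turned sign there and passed too (limma adjusted p = 0.000443, 0.000576, 0.00672, 0.00776, 0.0259, 0.027, 0.0347 and 0.048), as did Kif5a for the liver difference (limma adjusted p = 0.0026). In this reading the features called numbered 19 in Dll1 clone liver, 9631 in wildtype clone liver, 254 in wildtype clone spleen, 7035 for the liver difference and 3736 for wildtype spleen minus liver. Members called were then 35 in wildtype clone liver, 21 for the liver difference and 12 for wildtype spleen minus liver, and the members' medians were 0.043 in wildtype clone liver, 0.029 in wildtype clone spleen, -0.062 for the liver difference and -0.012 for wildtype spleen minus liver. Turned values of opposite sign in Dll1 clone liver were Cenps -0.065, Kif4 -0.052, Nek6 0.086, Nek9 0.048, Ccnb2 0.036, Bub1b 0.16, Cdc20 -0.41, Birc5 -0.039 and Kif23 0.073. In wildtype clone liver they were Cenph -0.16, Ncapd2 -0.18, Cenpp -0.14, Mad2l1 0.14, Nek9 0.44, Cdk1 0.30, Ccnb2 0.043, Aurkb 0.25, Bub1b -0.34, Cdc20 -0.21, Birc5 -0.26 and Kif23 -0.041. In Dll1 clone spleen they were Cenpx -0.083, Kif9 0.052, Ccnb2 -0.088 and Ccna2 0.29, and in wildtype clone spleen Ccna1 -0.72, Ccna2 0.13, Aurkb 0.52, Ccnb2 0.019, Bub1b 0.20 and Plk1 -0.23. For the differences they were Plk4 0.058 and Kif5a 0.32 in liver, Ccna1 0.94 in spleen, Kif9 0.14 for Dll1 spleen minus liver, and Ccna2 0.028 and Aurkb 0.27 for wildtype spleen minus liver. With arrays centred and scaled Kif23 lay at 0.008 in Dll1 clone liver and Bub1b at -0.026 in wildtype clone liver, and with the large values kept Kif9 lay at 1.56 in Dll1 clone spleen and 1.498 for Dll1 spleen minus liver. The 26 features called in wildtype clone liver became 16 with either array, 6 with the large values kept, 1 with scaling, 53 with robust eBayes, 14 with both genotypes in 1 fit and 82 with single arrays, which called 16 in wildtype clone spleen. For wildtype spleen minus liver the 16 features became 0 with either array, 10 with scaling, 0 with robust eBayes and 0 with the mouse as a replicate block, under which the members' median was -0.061. For Dll1 spleen minus liver the block left 0 features called and a median of -0.074, and it changed no member's call. Scaling gave medians of -0.079 in wildtype clone spleen and -0.069 for wildtype spleen minus liver. Leaving out each mouse in turn gave 0 to 51 features in wildtype clone liver, 0 to 1 for the liver difference and 0 for wildtype spleen minus liver, with members' medians of -0.068 to -0.054 there. In Dll1 clone liver it gave Cdk1 at -0.041 to 0.056, Aurka at -0.004 to 0.068 and Kif23 at -0.021 to 0.017. In wildtype clone liver it gave Ccna2 at -0.006 to 0.03, Aurka at -0.05 to 0.01, Bub1b at -0.022 to 0.04, Plk1 at -0.057 to 0.043, Birc5 at -0.071 to 0.16 and Cenpa at -0.015 to 0.074. In Dll1 clone spleen it gave Cdk1 at -0.13 to 0.046, Ccnb2 at -0.13 to 0.26, Bub1b at -0.016 to 0.19, Plk1 at -0.83 to 0.009, Cdc20 at -0.52 to 0.039, Kif23 at -0.52 to 0.071 and Cenpa at -0.34 to 0.33. In wildtype clone spleen it gave Cdk1 at -0.17 to 0.19, Bub1b at -0.086 to 0.03, Plk1 at -0.11 to 0.30, Kif23 at -0.058 to 0.17 and Cenpa at -0.27 to 0.14. The gene lists were also turned, an alternative chosen after seeing the data. For Dll1 clones and then wildtype clones, the spleen medians that changed sign became 0.123 and 0.103 for other kinetochore genes, 0.055 and 0.1 for cohesin and condensin core, 0.094 and 0.11 for spindle genes, -0.071 and 0.109 for the anaphase-promoting complex, 0.074 and 0.112 for cell cycle regulators, 0.044 and 0.171 for erythroid markers, 0.223 and 0.105 for platelet markers, -0.233 and -0.124 for B cell markers, 0.06 and 0.022 for germinal centre and plasma cell markers. Changes in 1 spleen group were, for Dll1 clones, 0.034 for neutrophil and macrophage markers, -0.32 for pancreas markers, 0.071 for hepatocyte markers. For wildtype clones the median became 0.13 for replication genes. In liver they became -0.063 for replication genes in wildtype clone liver, 0.064 for hepatocyte markers in wildtype clone liver.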
